A study of Trichoderma reesei with 36 samples.

Results

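Expression after 48 h of feeding with pure lactose (L100) was compared with expression after 24 h on the same feed in Trichoderma reesei Rut-C30, a filamentous fungus that secretes cellulases. The comparison holds every library whose label gives L100 as the feed, 6 sampled at 48 h and 6 at 24 h, or 12 of the 36 libraries of the series. Replicates are numbered within a group in the order of deposition. Because 48 h replicate 3 stood apart from all the other L100 libraries, results are given over the remaining 11 libraries (5 at 48 h and 6 at 24 h). Results over all 12 are given for the counts of calls and for the genes and lists where they are stated. In the whole study, Rut-C30 was grown in flasks on glucose until the sugar was exhausted and was then fed with pure glucose (G100), pure lactose or mixtures of both, and stranded mRNA libraries were sequenced at both times. All groups share the strain, a mutant with a truncated cre1 gene whose carbon catabolite repression is partly lifted, so the comparison concerns this genotype only. The cultures were repeated independently according to the growth protocol, and for each repeat a lactose flask, a glucose flask and a mixture flask were filled from one starting culture. The labels do not tie a library to its starting culture or flask, so libraries of the 2 times and of the 2 feeds may share a culture, and the tests treat all libraries as independent.

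Lactose, a disaccharide of glucose and galactose, is one of the few soluble sugars that induce the cellulase genes of T. reesei. It enters the mycelium through permeases such as CRT1 or is split outside the cell by the beta-galactosidase BGA1, and its galactose is used through the Leloir pathway. The cellulase genes need the Zn(2)Cys6 activator XYR1, and their products leave the cell through the endoplasmic reticulum, where chaperones fold them and mannosyltransferases glycosylate them.

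The 12 L100 libraries held between 9955798 and 49808747 counts at 24 h and between 17775861 and 34114913 at 48 h, against a median of 23493202.5 over the series. 48 h replicate 3 was closer to the G100 libraries than to its own group. Its root-mean-square difference of log2 CPM (counts scaled to a common library total, with TMM factors) was 1.35 to the median of the other L100 libraries at 48 h and 0.692 to the median of G100 at 48 h. The other 11 libraries lay between 0.272 and 0.429 from the median of their own group and between 0.858 and 1.14 from that of G100 at 48 h. CBH1, the main cellobiohydrolase, took 0.454% of the counts in 48 h replicate 3, between 11.9% and 14.5% in the other 48 h libraries and between 8.65% and 11.9% at 24 h. A second library, 48 h replicate 4, was slightly nearer to the 24 h median (0.364) than to the 48 h median (0.429), and the counts of a gene group are therefore also given without it (10 libraries) where they differ.

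**Figure D1:**
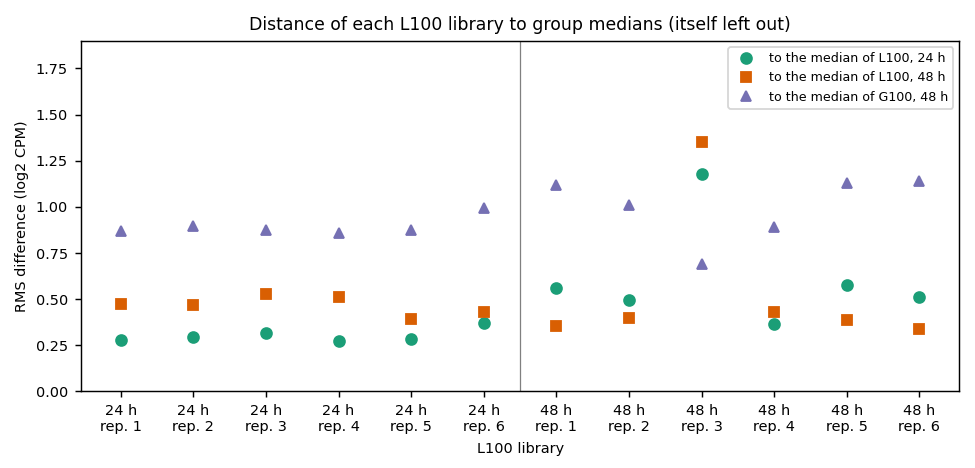
Root-mean-square difference in log2 CPM (y axis) between each of the 12 L100 libraries (x axis, 24 h left and 48 h right of the line) and the median of L100 at 24 h (circles), L100 at 48 h (squares) and G100 at 48 h (triangles), each library left out of its own group's median. 48 h replicate 3 lies at 1.35 from L100 at 48 h and at 0.692 from G100 at 48 h, whereas the other 11 libraries lie at 0.429 or less from their own group.

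Over the 11 libraries, 1961 of 8017 tested genes passed an adjusted p of 0.05 (edgeR quasi-likelihood test, Benjamini-Hochberg adjustment), and "rose" and "fell" are used for such genes only. Of these, 1043 rose (13.0% of the tested genes) and 918 fell (11.5%). Most changes were small: the median absolute log2 fold change of these 1961 genes was 0.45, the change exceeded 1 on a log2 scale for 73 genes that rose and 176 that fell, and it exceeded 2 for 7 and 18. The threshold for differential expression (DE), an adjusted p below 0.001 with an absolute log2 fold change above 2, was passed by 4 genes (0.0499%), 2 higher and 2 lower at 48 h. Over all 12 libraries, 315 genes rose (3.93% of 8013) and 224 fell (2.80%), and 538 of these 539 genes were also called over the 11 libraries, in the same direction in each case. None (0%) was DE over the 12 libraries by edgeR, with 1947 genes at an unadjusted p below 0.05, whereas DESeq2 gave 3 DE genes and limma voom 13. The scaling decides the balance of the 2 directions: with library size alone in place of TMM, the median over all tested genes went from -0.01 to -0.18 on the log2 scale, and 389 genes rose while 2483 fell over the 11 libraries (13.5% of the calls upward, against 53.2% with TMM), with 41 and 108 over the 12 libraries. All values below are relative to the TMM scale, and all folds are 48 h against 24 h. Of the 1961 genes called over the 11 libraries, 1423 were not called over the 12. Where no result over the 12 libraries is stated below, a call is that over the 11. Without 48 h replicate 4 as well, 1229 of 8044 tested genes rose and 1210 fell. Counts of lists in that fit are to be read beside these.

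Of 12 genes for cellulases and the proteins that accompany them, 5 rose and none fell, and the other 7 did not pass. The median log2 fold change was 0.41 against -0.01 over all tested genes. Without 48 h replicate 4, and likewise with library size alone, 5 rose and 1 fell. Their summed level was between 238000 and 341000 CPM at 24 h and between 374000 and 463000 CPM in 5 of the 48 h libraries, and it was 10500 CPM in 48 h replicate 3. CIP1, a secreted protein with a cellulose-binding module, was measured at 14070 to 16650 CPM at 24 h (median 14670) and at 25380, 22710, 20260, 21510 and 26980 CPM at 48 h. The 48 h values lay above every 24 h value, and CIP1 rose by 0.64 ± 0.12 on the log2 scale (SE, adjusted p = 0.00331), while 48 h replicate 3 held 419.8 CPM. CBH2, the cellobiohydrolase that attacks the non-reducing chain end, went from a median of 65090 CPM (range 50350 to 78500) to 98610, 91260, 87080, 94660 and 112500 CPM and rose by 0.59 ± 0.16 (adjusted p = 0.0201), a call that was lost without 48 h replicate 6 (0.52, adjusted p = 0.0528). CEL61A, a lytic polysaccharide monooxygenase that opens cellulose chains by oxidation, rose by 0.71 ± 0.18 (adjusted p = 0.0135), although its lowest 48 h library was within the 24 h range. CEL74A, a xyloglucanase, and the swollenin SWO1, which loosens cellulose, rose by 0.52 and 0.51.

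CBH1, which took the largest share of the counts, held 98590 to 154400 CPM at 24 h (median 119100) and 188900, 168100, 159300, 158900 and 206000 CPM at 48 h. Although these groups did not overlap, its difference of 0.51 ± 0.18 missed the threshold in edgeR (adjusted p = 0.0591); it passed in DESeq2 and in limma voom, and in edgeR without 24 h replicate 6 (0.58, adjusted p = 0.0415). The endoglucanase CEL7B was at 23370 to 26830 CPM at 24 h and at 36080, 28670, 31970, 27750 and 34970 CPM at 48 h, and its difference of 0.32 ± 0.12 did not pass (adjusted p = 0.0725) but passed in DESeq2 and voom. For CEL5A, a second endoglucanase, the difference was 0.26 ± 0.13 (adjusted p = 0.152; 0.0258 in DESeq2), and the groups overlapped. Over the 12 libraries, no member of this list passed and its median log2 fold change was 0.15.

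The beta-glucosidases, which split cellobiose and have transglycosylation activity, included 2 genes that fell and none that rose, out of 7, with a median of -0.50. Without 48 h replicate 4 as well, 4 fell. CEL3E, an enzyme of glycoside hydrolase family 3, held 311 to 449.5 CPM at 24 h (median 345) and 124, 146, 255.3, 196 and 187 CPM at 48 h, with no overlap. It fell by 0.99 ± 0.16 (adjusted p = 0.00215), and it also fell over the 12 libraries (-1.20, adjusted p = 0.0377), a call that was lost without any 1 of 10 libraries (all but 48 h replicates 3 and 4; adjusted p of 0.0557 to 0.0883). CEL1B, an enzyme of family 1, went from 1364 to 2056 CPM at 24 h to 1354, 1056, 1142, 1081 and 1249 CPM at 48 h and fell by 0.50 ± 0.12 (adjusted p = 0.0103). The intracellular CEL1A showed a difference of -0.18 ± 0.12 (adjusted p = 0.306) and passed with library size alone (-0.35, adjusted p = 0.0374).

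Among 16 hemicellulases, 7 rose and 1 fell, with a median of 0.34, and none passed over the 12 libraries. Without 48 h replicate 4, 6 rose and 2 fell. The arabinofuranosidase ABF2, which removes arabinose side chains, was at 1849 to 2584 CPM at 24 h (median 2348) and at 3487, 3395, 4708, 3812 and 3982 CPM at 48 h. All 5 values exceeded the 24 h range, and ABF2 rose by 0.74 ± 0.11 (adjusted p = 0.00158). The alpha-galactosidase AGL3 rose by 1.24 ± 0.29 (adjusted p = 0.00937), from 241 to 729.6 CPM to 1393, 812, 543, 1202 and 1084 CPM, so that 1 of the 5 libraries, replicate 4, remained within the 24 h range. PGX1, an exo-polygalacturonase, the mannanase MAN1, the esterases AES1 and AXE1 and the xylanase XYN5 rose by 0.54, 0.42, 0.59, 0.61 and 0.47. XYN5 was close to the threshold (adjusted p = 0.0482) and lost the call when any of 9 of the 11 libraries was left out. A second arabinofuranosidase, ABF3, moved the other way: it held 11.9 to 47.3 CPM at 24 h and 11, 9.31, 18.4, 9.76 and 9.87 CPM at 48 h, and fell by 1.56 ± 0.31 (adjusted p = 0.00471). 48 h replicate 3 had 166 CPM of ABF3, and over the 12 libraries its difference was 0.10 (adjusted p = 0.952).

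**Figure D2:**
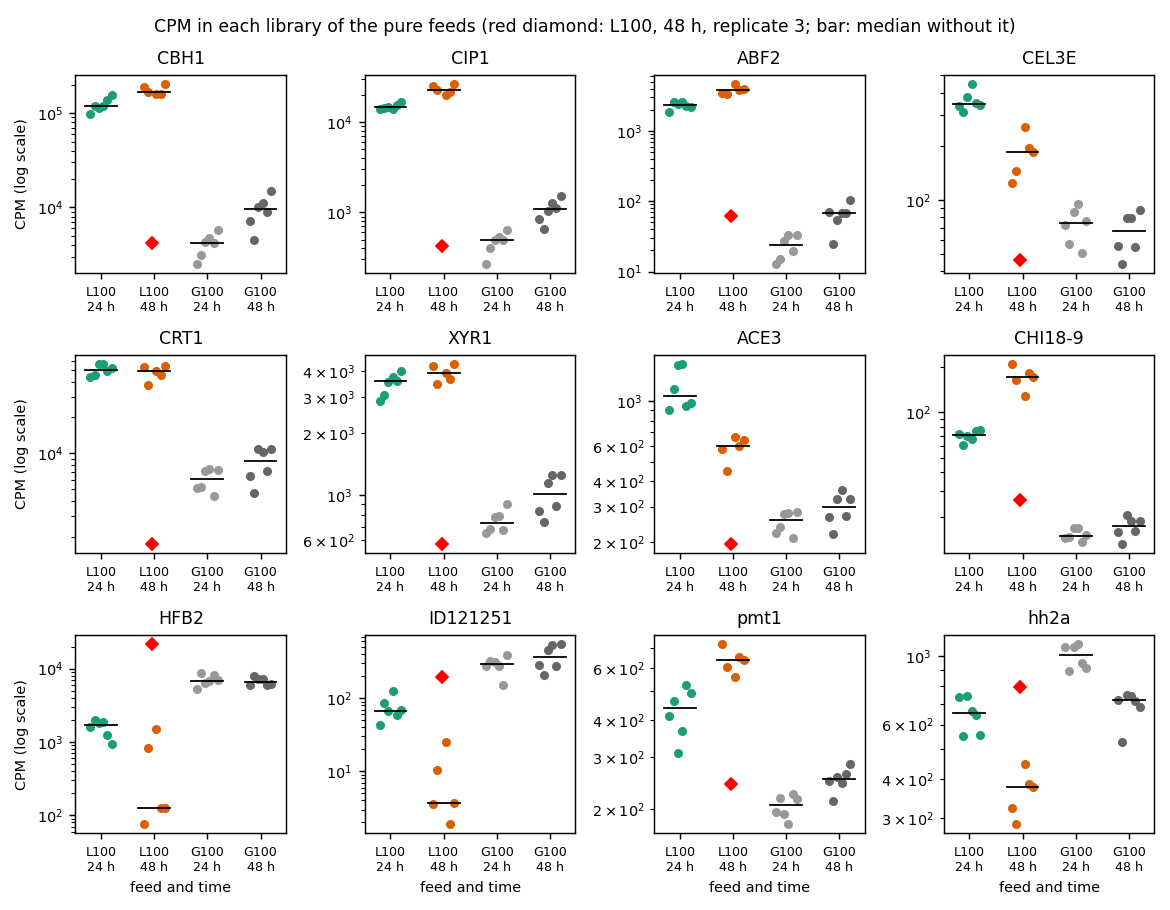
CPM (log scale, y axis) of 12 genes in every library of L100 and G100 at 24 h and 48 h (x axis); the red diamond is 48 h replicate 3 and the bar is the median without it. For CBH1, CIP1 and ABF2 the other 5 L100 libraries at 48 h lie above all 6 at 24 h. For CEL3E and ACE3 they lie below them. In these genes the red diamond lies near the G100 libraries, as for CBH1 with 4199 CPM. For CRT1 (1720 CPM) and HFB2 (21830 CPM) it lies outside the range of the G100 libraries.

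Of 21 genes of lactose uptake and sugar catabolism, 3 rose and 4 fell over the 11 libraries, with a median of -0.03. Without 48 h replicate 4, 4 rose and 4 fell, and with library size alone none rose and 5 fell. None of the 21 passed over the 12 libraries. The lactose permease CRT1 was at 44010 to 56640 CPM at 24 h (median 50610) and at 53220, 37210, 49000, 45500 and 54340 CPM at 48 h. These ranges overlapped, and the difference was -0.09 ± 0.15 (adjusted p = 0.697). BGA1, the extracellular beta-galactosidase, differed by -0.03 ± 0.17 (adjusted p = 0.921), with 962 to 1536 CPM at 24 h and 912, 1053, 1773, 1007 and 1167 CPM at 48 h. Of the Leloir enzymes, the galactokinase gal1 differed by -0.34 ± 0.13 (adjusted p = 0.0755; 0.0254 to 0.0443 in models fitted jointly over 4 or 8 groups), the uridylyltransferase gal7 by -0.11 ± 0.09 (adjusted p = 0.393) and the epimerase gal10 by -0.03 ± 0.06 (adjusted p = 0.693). None of 5 Leloir and pentose enzymes passed over the 11 libraries, while 3 fell without 48 h replicate 4. All 5 fell with library size alone, where 2483 of all 8017 tested genes fell. A putative D-galactose dehydrogenase (ID56840) rose by 0.39. Of the other permeases, the putative pentose transporter ID50894 rose by 0.34 ± 0.08 (adjusted p = 0.0131; 0.17 and 0.12 with library size alone), from 2044 to 2616 CPM to 2870, 2976, 3102, 3210 and 3188 CPM. The xylose permease XLT1 fell by 0.28 ± 0.08 (adjusted p = 0.02; -0.26 and 0.0568 without 48 h replicate 1), and CLP1, a sugar transporter, fell by 0.73 ± 0.18 (adjusted p = 0.0129). In 48 h replicate 3, CRT1 stood at 1720 CPM and CLP1 at 0.978 CPM.

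Of 23 tested transcription factors on the list, 4 rose and 5 fell, with a median of -0.15. Without 48 h replicate 4, 6 of 24 rose and 8 fell, beside 1229 and 1210 of 8044 over all tested genes. With library size alone 1 rose and 6 fell, beside 389 and 2483 of 8017. XYR1, the main activator of cellulase and xylanase genes, held 2850 to 4003 CPM at 24 h (median 3566) and 4239, 3453, 3909, 3646 and 4352 CPM at 48 h, a difference of 0.17 ± 0.11 (adjusted p = 0.248). ACE3, an activator needed for cellulase expression, was lower in every 48 h library. It was at 906 to 1531 CPM at 24 h (median 1062) and at 577, 449, 664, 601 and 643 CPM at 48 h. It fell by 1.001 ± 0.16 over the 11 libraries (adjusted p = 0.00191) and was the one listed transcription factor that passed over all 12 (-1.18, adjusted p = 0.0259), with 195 CPM in 48 h replicate 3. The call over the 12 libraries was lost without 24 h replicate 1, 2, 3 or 4 or 48 h replicate 1 or 2 (adjusted p of 0.0512 to 0.0639). CLR2, whose Neurospora crassa counterpart controls cellulose utilization, rose by 0.32 ± 0.09 (adjusted p = 0.021), but not without 48 h replicate 1 (0.26, adjusted p = 0.0647) or 5 (0.28, adjusted p = 0.0532) or with library size alone. The Zn(2)Cys6 factor PMH29 rose by 1.27 ± 0.32 (adjusted p = 0.0134), from 34.2 to 101 CPM to 211, 139, 75.3, 213 and 164 CPM, of which 1 value, that of replicate 4, was within the 24 h range. RES1 fell by 0.58 ± 0.13 (adjusted p = 0.00692), from a median of 35.8 CPM to 24.1, 19.4, 27.2, 26.4 and 22.0 CPM, against 138 CPM in 48 h replicate 3. A group of 7 regulators of carbon repression and of cellulases identified by their RefSeq symbol contained no gene that passed (median 0.06).

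The genes of hydrophobins and cell wall proteins varied widely between the libraries at 48 h. Of 9 tested genes, 5 fell and none rose, with a median of -1.43; without 48 h replicate 4, all 9 fell, with a median of -1.73. Their summed level was between 1500 and 2860 CPM at 24 h, between 191 and 2370 CPM in the 5 libraries at 48 h and 29400 CPM in 48 h replicate 3. HFB2, a class II hydrophobin that coats aerial hyphae and spores, held 949.6 to 2011 CPM at 24 h (median 1720) and 75.1, 835, 1497, 126 and 126 CPM at 48 h. At 48 h, replicates 1, 5 and 6 were far below the 24 h range, replicate 2 was just below it, replicate 4 was within it, and replicate 3 was at 21830 CPM. The difference of -1.57 ± 0.68 did not pass over the 11 libraries (adjusted p = 0.108) but passed without 48 h replicate 4 (-2.44, adjusted p = 0.0125), in voom (-3.15, adjusted p = 0.00298), in the model of 4 groups (adjusted p = 0.0246) and in that of 8 groups with 33 libraries (0.0105). HFB3, another hydrophobin, likewise differed by -1.14 ± 0.52 (adjusted p = 0.124) and passed under the same alternatives, at -1.92 without 48 h replicate 4 (adjusted p = 0.00482) and -2.19 in voom (0.00349). The putative cell wall protein ID121251 went from 42.98 to 126 CPM to 3.63, 10.5, 25.3, 1.88 and 3.69 CPM and fell by 3.03 ± 0.56 (adjusted p = 0.00346). A non-anchored cell wall protein similar to Ncw-2 fell by 1.43 ± 0.21 (adjusted p = 0.00125), and one similar to QID74 fell by 1.69 ± 0.52 (adjusted p = 0.0328), the latter call being lost when any of 5 of the 11 libraries was left out. Over the 12 libraries no member passed and the median was 1.04, the sign being reversed by 48 h replicate 3.

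Among the genes of conidiation and sexual development, 2 of 8 fell and none rose, where 11.5% of all tested genes fell (median -0.45; 5 fell and 1 rose without 48 h replicate 4), namely the pheromone receptor HPR1 (-1.09) and the clock-controlled gene CCG6 (-0.48 ± 0.16, adjusted p = 0.0444), and CCG6 lost the call when any of 9 of the 11 libraries was left out. Of the developmental regulators, Tr-PRO1, the counterpart of a factor for fruiting body formation in other ascomycetes, had 44.2, 63.7, 130.2, 44.97 and 44.4 CPM at 48 h against 69.7 to 125 at 24 h and differed by -0.47 ± 0.28 (adjusted p = 0.237). It passed without 48 h replicate 4 (-0.88, adjusted p = 0.00399) and in voom (-0.80, adjusted p = 0.0169). Tr-ACON-3, the counterpart of a conidiation gene of Neurospora, differed by -0.15 ± 0.31 (adjusted p = 0.763). In 48 h replicate 3 Tr-PRO1 and Tr-ACON-3 stood at 631 and 799 CPM. Of 12 tested G-protein coupled receptors, 3 fell and none rose (median -0.69; 6 fell without 48 h replicate 4). ID45573, a receptor of the PTH11 type, a family known from surface sensing in a rice pathogen, went from 26.1 to 69.7 CPM to 11.9, 14.0, 22.0, 16.6 and 13.6 CPM, with no overlap, and fell by 1.64 ± 0.23 (adjusted p = 0.000994); over the 12 libraries it fell by 1.61 (adjusted p = 0.00761). In bulk mycelium, fewer cells of a developmental type and less of the transcript per cell cannot be told apart.

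Of 12 genes for folding, glycosylation and vesicle transport in the secretory pathway, 3 rose, none fell and 9 did not pass (median 0.06). Over all tested genes 13.0% rose. Without 48 h replicate 4, 5 of the 12 rose, whereas with library size alone 2 rose and 4 fell. The genes described here that rose, pmt1, ire1, pdi1 and CNE1, did so slightly. The protein O-mannosyltransferase pmt1 held 309.6 to 528 CPM at 24 h and 726, 603, 561, 657 and 641 CPM at 48 h, with no overlap, and rose by 0.57 ± 0.13 (adjusted p = 0.00765). It did not pass over the 12 libraries (adjusted p = 0.303). The sensor of the unfolded protein response ire1 rose by 0.41 ± 0.07 (adjusted p = 0.00226) and also passed over the 12 libraries (adjusted p = 0.0457). The latter call was lost without any 1 of the 11 libraries other than 48 h replicate 3 (adjusted p of 0.0561 to 0.111) and with library size alone (0.162). The disulfide isomerase pdi1 rose by 0.45 ± 0.13 (adjusted p = 0.0213) and the calnexin CNE1 by 0.45 ± 0.13 (adjusted p = 0.024); both calls were lost with library size alone (0.28 for each gene), and each was lost without 24 h replicate 4 or without 48 h replicate 1 or 6 (adjusted p of 0.051 to 0.0692), that of pdi1 also without 48 h replicate 5 (0.0536). BIP1, the main chaperone of the endoplasmic reticulum, was at 4047 to 6992 CPM at 24 h and at 8160, 7361, 6371, 8638 and 7809 CPM at 48 h, a difference of 0.42 ± 0.15, which did not pass (adjusted p = 0.0587) but passed without 24 h replicate 5 or 6 or 48 h replicate 4 (0.47 to 0.49, adjusted p of 0.0379 to 0.0444), in DESeq2, in voom and in the models of 4 and 8 groups. In a list of 4 folding genes of the endoplasmic reticulum that includes CNE1 and BIP1, 1 rose and 1 fell (2 and 1 without 48 h replicate 4). FPR2, annotated as a membrane-bound prolyl isomerase, fell by 3.04 ± 0.46 (adjusted p = 0.0015), from 1.75 to 8.29 CPM to 0.242, 0.681, 1.15, 0.676 and 0.397 CPM, and thus had the size but not the p of the DE threshold.

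**Figure D3:**
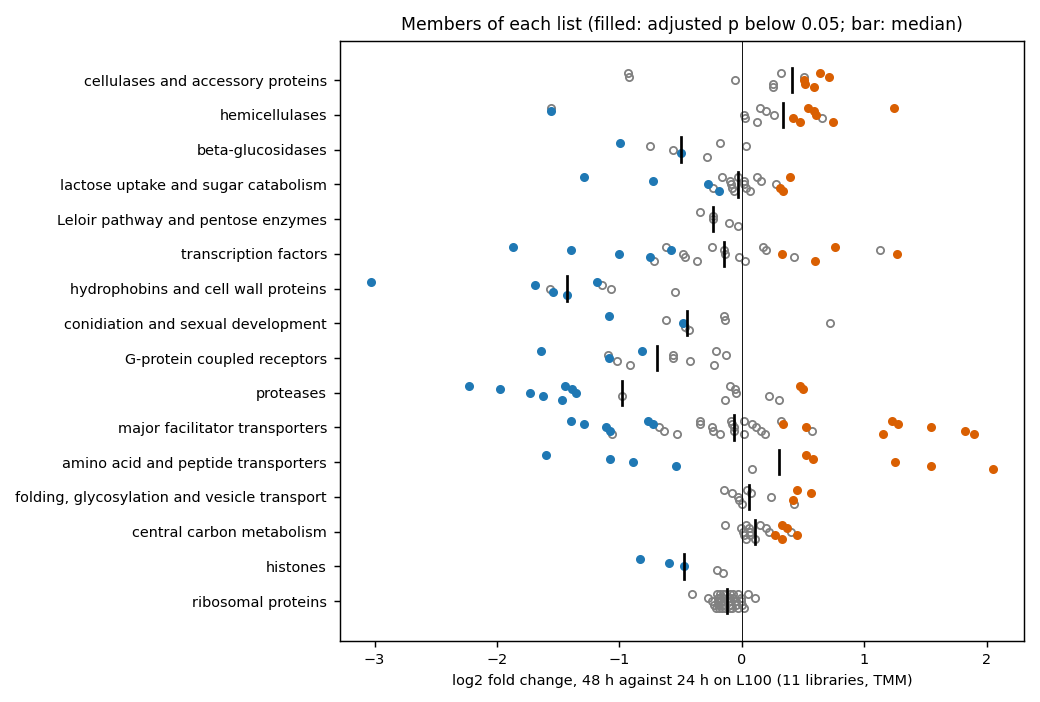
Log2 fold change, 48 h against 24 h on L100 over 11 libraries (x axis), of each tested member of 16 gene lists (y axis); filled points passed an adjusted p of 0.05 (orange higher, blue lower at 48 h), open points did not, and bars are medians. The median was 0.41 for cellulases, -0.50 for beta-glucosidases, -1.43 for hydrophobins and cell wall proteins and -0.12 for ribosomal proteins.

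Of 4 tested genes on the list of family 18 chitinases, 1 rose (1.29) and 1 fell (-1.7), where 13.0% of all tested genes rose and 11.5% fell. Of 12 chitinases and N-acetylglucosaminidases identified by symbol, 2 rose and 2 fell (2 and 3 without 48 h replicate 4). CHI18-9, a chitinase of glycoside hydrolase family 18, was among the genes with the smallest adjusted p of the comparison. It was at 60.96 to 76.7 CPM at 24 h (median 70.3) and at 211, 163, 127.7, 183 and 171 CPM at 48 h. All 48 h values exceeded the 24 h range, and it rose by 1.29 ± 0.11 (adjusted p = 5.97e-05), while 48 h replicate 3 held 25.9 CPM and the gene did not pass over the 12 libraries (adjusted p = 0.0909). Another chitinase, chi18-7, fell by 0.41 ± 0.07 (adjusted p = 0.00239), and the N-acetylglucosaminidase nag1, which splits chitin oligomers, rose by 0.45 ± 0.10 (adjusted p = 0.00907; 0.0453 over 12 libraries). The call of nag1 over the 12 libraries was lost without any 1 of 10 libraries (all but 48 h replicates 2 and 3; adjusted p of 0.0502 to 0.103) and with library size alone (0.208). Of 5 histone genes, whose transcription follows DNA replication, 3 fell and none rose (median -0.47). All 5 fell with library size alone, where 2483 of all 8017 tested genes fell. hh2a went from 552 to 739.8 CPM to 325, 286, 449.6, 387 and 378 CPM, with no overlap, and fell by 0.84 ± 0.12 (adjusted p = 0.00132), while hh4.1 fell by 0.59 (adjusted p = 0.00346) and hh2b by 0.47 (adjusted p = 0.00606). Over the 12 libraries only hh4.1 passed (adjusted p = 0.0322). That call was lost without any 1 of 7 libraries and with library size alone (0.165). Of 42 ribosomal protein genes and 6 proteasome subunits none passed on the TMM scale (medians -0.12 and -0.14). With library size alone 7 ribosomal genes fell, a smaller share than the 2483 of 8017 over all tested genes. In central carbon metabolism 5 of 19 rose and none fell (median 0.11; 4 rose without 48 h replicate 4, and 1 rose and 1 fell with library size alone). They included the isocitrate dehydrogenase idh2 (0.45 ± 0.10, adjusted p = 0.00694; 0.0205 over 12 libraries but 0.144 there with library size alone and 0.0558 and 0.0527 without 24 h replicates 1 and 4), the pyruvate carboxylase pyc1 (0.37), the enolase eno1 (0.33) and the glucose-6-phosphate dehydrogenase zwf1 (0.27).

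Transporters and extracellular proteases moved in both directions. Over all tested genes, 13.0% rose and 11.5% fell over the 11 libraries, and the counts of these groups are to be read beside those shares. Of 35 major facilitator transporters 8 rose and 6 fell (median -0.06; 9 rose and 11 fell without 48 h replicate 4, and 7 rose and 10 fell with library size alone), and of 10 amino acid and peptide transporters 5 rose and 4 fell. ID80086, a putative peptide transporter of the facilitator family, went from 23.4 to 58.4 CPM to 81.4, 151, 106, 86.0 and 117 CPM and rose by 1.54 ± 0.23 (adjusted p = 0.00157). ID70934, a putative oligopeptide transporter, rose by 2.05 ± 0.45 (adjusted p = 0.00722), from 3.28 to 10.7 CPM to 37.3, 9.99, 8.54, 46.9 and 25.4 CPM, so that 2 of the 5 libraries at 48 h were within the 24 h range. Among 17 proteases 2 rose and 8 fell (median -0.98; 2 and 9 without 48 h replicate 4), and no protease passed over the 12 libraries, where the median was 0.06. ID119876, annotated as a pepsin-like aspartic protease, held 20.4 to 67.9 CPM at 24 h and 5.84, 8.85, 16.2, 10.5 and 10.3 CPM at 48 h and fell by 1.98 ± 0.34 (adjusted p = 0.00272). Of 12 cytochromes P450, enzymes of oxidation in secondary metabolism and detoxification, 1 rose and 2 fell, which is near the shares over all tested genes. Without 48 h replicate 4, 2 rose and 4 fell, beside 1229 and 1210 of all 8044 tested genes. Among the P450 genes, ID70842 fell by 2.52 ± 0.41 (adjusted p = 0.00202), from 1.36 to 5.82 CPM to 0.645, 0.409, 0.841, 0.826 and 0.170 CPM. Of 5 genes for iron and zinc uptake 2 rose and 2 fell, and the putative ferric reductase ID23353 rose by 1.48 ± 0.21 (adjusted p = 0.000994), from 1.46 to 2.74 CPM to 7.09, 4.04, 4.16, 7.06 and 5.85 CPM. Of 7 backbone enzymes of secondary metabolism 1 rose and 1 fell, also near the shares over the 11 libraries. Without 48 h replicate 4, 1 of them rose and 3 fell. Of 8 small secreted cysteine-rich proteins 1 rose and 3 fell (1 and 4 of 9 without 48 h replicate 4). No member of the lists in this paragraph passed over the 12 libraries.

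The 4 DE genes all had low counts. ID77547, a putative glycosyltransferase of family 1, held 8.24 to 14.9 CPM at 24 h (median 13.2) and 2.42, 1.27, 2.92, 1.58 and 2.44 CPM at 48 h. It fell by 2.55 ± 0.22 (adjusted p = 5.97e-05) and by 2.18 over the 12 libraries (adjusted p = 0.00761), with 5.93 CPM in 48 h replicate 3. ID4561, a putative glycosyltransferase of family 32, fell by 2.01 ± 0.27 (adjusted p = 0.000972), from 4.23 to 12.3 CPM to 2.38, 2.63, 2.17, 1.35 and 1.31 CPM. ID121556, a putative glyoxalase, an enzyme class that detoxifies methylglyoxal, rose from 1.31 to 1.83 CPM to 3.14, 5.08, 9.69, 8.78 and 6.70 CPM, a change of 2.13 ± 0.27 (adjusted p = 0.000777). This gene was higher on glucose, at 10.8 to 479 CPM in G100 at 24 h and 18.5 to 156 CPM at 48 h. ID106494, without annotation, was at 0.306 to 0.861 CPM at 24 h and 3.06, 2.59, 1.46, 5.41 and 2.89 CPM at 48 h, a change of 2.73 ± 0.35 (adjusted p = 0.000826). It did not pass over the 12 libraries (adjusted p = 0.0767). In each of the 4 genes the 5 libraries at 48 h did not overlap the 6 at 24 h. Among all tested genes this held for 603 upward (7.52%) and 403 downward (5.03%).

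The study sorted its responding genes into 5 clusters from lactose against glucose ratios that include these libraries, so that the clusters are not independent of the present values and are described only. Over all tested genes, 13.0% were higher and 11.5% lower at 48 h over the 11 libraries. In U+ and U-, the clusters raised on lactose, 29 of 77 and 79 of 194 tested genes were higher at 48 h than at 24 h over these libraries, with 3 and 5 lower (medians 0.32 and 0.42). In D- and D+, the clusters lowered on lactose, 88 of 211 and 13 of 41 were lower, with 2 and 1 higher (medians -0.71 and -0.58). The remaining cluster, whose genes respond unevenly to the lactose share, held 2 higher and 17 lower genes of 48 (median -0.73). Without 48 h replicate 4 the higher genes were 30 of 77 in U+ and 101 of 195 in U-, and the lower genes were 141 of 216 in D-, 18 of 41 in D+ and 26 of 48 in the remaining cluster. 48 h replicate 3 moved the median of D- to 0.46 and that of D+ to 1.94 over the 12 libraries. In that fit 13 of 213 genes of D- and 8 of 47 of the remaining cluster were lower. In U- and in D+ 1 gene each was higher, and no other gene of the clusters was called.

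The change with time was then compared with that on pure glucose (6 libraries at 24 h and 6 at 48 h), where 1144 genes rose (14.1% of 8088), 964 fell (11.9%) and 9 were DE. The interaction of feed and time was past an adjusted p of 0.05 for 417 of 8211 genes (5.08%) without 48 h replicate 3 and for 1 of 8206 (0.0122%) with it, at 979 genes with an unadjusted p below 0.05; the one gene was ID103015, a putative NADH-flavin oxidoreductase. Of the 417 genes, 167 had the more positive change on lactose and 250 the more negative, and 306 were also called in the lactose comparison. CHI18-9 changed by 0.17 on G100 (adjusted p = 0.232) against 1.29 on L100, a difference of 1.11 (adjusted p = 0.000663). ACE3 differed in the other direction, with 0.23 on G100 (adjusted p = 0.161) against -1.001 on L100, a difference of -1.24 (adjusted p = 0.00448). XYN5 rose on both feeds, with the larger fold on glucose (2.32, adjusted p = 8.98e-05), a difference of -1.86 (adjusted p = 0.00307). The levels were unlike, since its median went from 23.8 to 110 CPM on G100 and from 1206 to 1628 CPM on L100. ID107202, of unknown function, had differences of -1.99 on L100 and -0.41 on G100, and the interaction was -1.58 (adjusted p = 0.000663). ID70108, a putative major facilitator transporter, rose by 0.53 on L100 and fell by 0.38 on G100 (interaction 0.89, adjusted p = 0.000663), and ID75568 rose by 0.34 on L100 against -0.09 on G100 (interaction 0.42, adjusted p = 0.00121).

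Of the 12 cellulases and accessory proteins, 5 rose with time on L100 and 10 on G100, at different levels, since their summed level at 48 h on G100 was 10900 to 35100 CPM. CBH1 changed by 1.20 on G100 (adjusted p = 0.00562) and by 0.51 on L100, and the interaction of -0.71 did not pass (adjusted p = 0.239). The same held for CBH2 (-0.83, adjusted p = 0.18) and CIP1 (-0.56, adjusted p = 0.21). Of all 12 genes of this list, 2 passed the interaction test over 23 libraries, as did 3 of the 16 hemicellulases. Among all 8211 tested genes 5.08% passed. Among the cell wall proteins, ID121251 fell on L100 and differed by 0.40 on G100 (interaction -3.45, adjusted p = 0.00797), whereas for HFB2 the interaction was -1.53 (adjusted p = 0.206). Of the 5 histone genes, 4 fell on G100 (median -0.37), and none passed the interaction test. On G100 ire1 (0.27, adjusted p = 0.000821), pmt1 (0.30, adjusted p = 0.00886) and CNE1 (0.37, adjusted p = 0.0119) rose too. There pdi1 did not pass (0.30, adjusted p = 0.0629), and none of these secretory genes passed the interaction test.

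**Figure D4:**
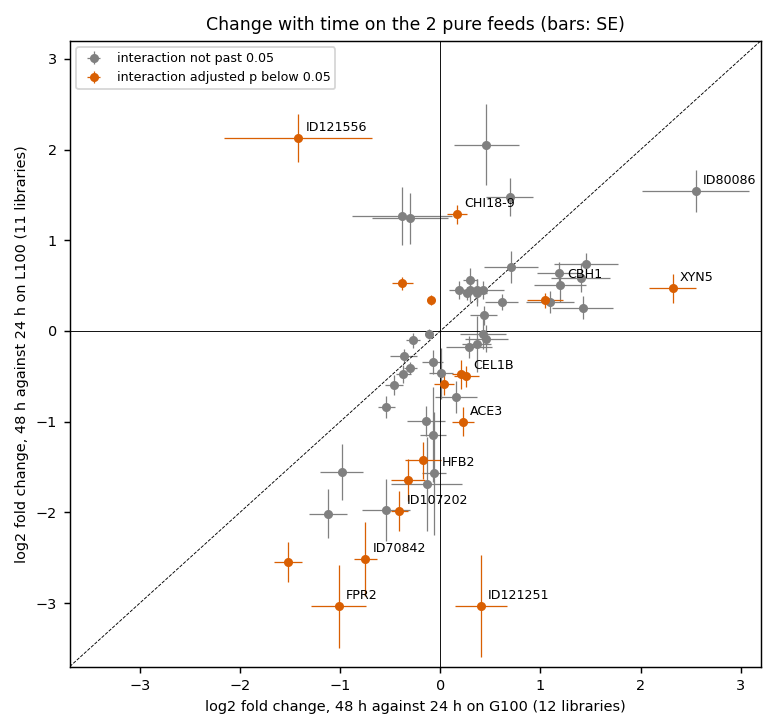
Log2 fold change from 24 h to 48 h on G100 (x axis, 12 libraries) against that on L100 (y axis, 11 libraries) for 59 of the genes described here, all tested in both, with SE bars. Orange points passed the interaction test and the dashed line marks equal change. CHI18-9 and ID121556 lie above the line, with interactions of 1.11 and 3.51, and ACE3, XYN5 and ID121251 below it, with -1.24, -1.86 and -3.45.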

How the data were processed

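Polyadenylated RNA was sequenced in 36 stranded libraries, and one file per library held gene counts. The authors obtained these counts, which were deposited as whole numbers per gene and not normalized, by counting mapped reads in annotated genes; the submitters' processing notes name bcl2fastq 2.17.1.14, Bowtie and HTSeq 0.5.3, and the genes carry JGI protein identifiers of the QM6a annotation. Of the 9129 genes, 9072 were matched to RefSeq and 226 had a symbol there. The table gives no product names, so the housekeeping lists were built from symbols instead of product keywords.

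Genes were kept with edgeR's filterByExpr (minimum count 10), scaled with TMM factors and tested with the quasi-likelihood test of edgeR 4.0.16 in R 4.3.3, with Benjamini-Hochberg adjustment over all tested genes. The SE of a log2 fold change is its absolute value over the square root of F. L100 at 48 h and 24 h were fitted alone, over 12 libraries and over 11 without 48 h replicate 3; the interaction of feed and time was fitted over L100 and G100 (24 and 23 libraries). CPM in the text used TMM factors over all 36 libraries; they are not divided by gene length and compare a gene between libraries. Replicates came from separate starting cultures per the growth protocol, but the flasks of a replicate shared one and the labels do not tie libraries to it; the tests treat libraries as independent. The alternatives were RLE and library size scaling, DESeq2 1.42.0, limma voom with sample quality weights (limma 3.58.1), other filters, joint models of 4 or 8 groups, thresholds and leaving out each library; the counts of lists without 48 h replicate 4 were added after the data were seen. The scripts were tested on simulated data. The members, lists and tests were chosen with earlier results of these data known.

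Named genes were members of 9 lists (cellulases, beta-glucosidases, hemicellulases, sugar uptake and catabolism, transcription factors, development, cell wall, chitinases, folding), the DE genes whose groups did not overlap, the 5 genes of highest CPM, up to 4 genes of smallest p in any other list, and the 3 genes of smallest p in each direction of the interaction. ID103015 and the members chosen within each list were named after their values were seen. The deposited mixture libraries entered only the scaling and the 8-group models. The genes HPP1 and ID63563 were not analysed here.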

Additional observations from a re-analysis of the deposited data

Results flagged for a closer look

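Among 60 genes and 180 groups of libraries, 40 groups held a library whose gap to the nearest other was larger than Dixon's critical value for the group's range, which chance gives in about 1 in 20 groups, and 37 of the 40 were L100 48 h replicate 3. It was the lowest of the 6 libraries, with the CPM in parentheses, for CBH1 (4200), CBH2 (2290), CIP1 (420), CEL7B (789), CEL5A (802), CEL1B (197), ABF2 (61.3), CRT1 (1720), XLT1 (44.1), CLP1 (0.978), ID50894 (207), XYR1 (574), CLR2 (7.3), CNE1 (618), BIP1 (1680), pmt1 (243), ID70108 (4.66) and ID75568 (81.7). It was the highest for ID77547 (5.93), ID4561 (5.02), ABF3 (166), RES1 (138), Tr-PRO1 (631), Tr-ACON-3 (799), HFB2 (21800), HFB3 (3680), Ncw-2-like (50.4), ID121251 (196), QID74-like (739), CCG6 (2520), FPR2 (14.2), chi18-7 (134), hh2a (791), hh2b (1160), ID119876 (62.8), ID70842 (6.81) and ID107202 (4.33). Among the 5 other libraries at 48 h, replicate 4 stood apart as the highest for ABF3 (18.4 CPM) and Tr-PRO1 (130 CPM, with 63.7 CPM in the next library). At 24 h, replicate 2 stood apart for XYN5 (1700 CPM). These 2 flags at 48 h and 1 at 24 h, each among 60 genes, are no more than the 1 in 20 that chance gives. For CBH1 and HFB2 the values of 48 h replicate 3 are on the side of the G100 libraries, as in the plot of CPM by library. It also lay beyond the G100 libraries for some genes. HFB2 reached at most 8783 CPM on G100, and CRT1, at 1720 CPM in 48 h replicate 3, at least 4343 CPM. Its hydrophobins and cell wall proteins summed to 29400 CPM, against 10800 to 12500 CPM on G100 at 48 h. How this library came to differ was not tested.

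The change with time differed between L100 and G100 in the interaction test over 23 libraries for 17 of the 60 genes. The log2 change was more positive on L100 for ID121556 (3.514), chi18-9 (1.105), ID70108 (0.893) and ID75568 (0.417), and more negative on L100 for ID77547 (-1.035), CEL1B (-0.772), XYN5 (-1.862), ID50894 (-0.721), ACE3 (-1.24), RES1 (-0.633), Ncw-2-like (-1.262), ID121251 (-3.445), CCG6 (-0.694), FPR2 (-2.038), ID70842 (-1.777), ID45573 (-1.333) and ID107202 (-1.576). None of these 17 genes passed this test when 48 h replicate 3 was included.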

How the results depend on the processing

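No paired analysis was possible because the labels do not tie a 24 h library to a 48 h library. Over the 12 libraries, the 539 genes past an adjusted p of 0.05 became 149 with library size alone, 1102 in DESeq2, 2658 in limma voom, 1639 in a model of 8 groups and 1648 in a model of 4 groups, and leaving out 1 library gave 124 (24 h replicate 1) to 1961 (48 h replicate 3). The count also moved by over 1.5 times without 24 h replicates 2, 3 or 4 or 48 h replicates 1, 2 or 5 (169 to 291). The 0 DE genes became 3 in DESeq2, 13 in voom, 2 and 1 in the models of 8 and 4 groups, and 0 to 4 with 1 library left out (4 without 48 h replicate 3). Over the 11 libraries, the 1961 calls became 1253 (without 48 h replicate 1) to 2439 with 1 library left out. The 4 DE genes became 18 in DESeq2, 20 in voom, 12 and 16 in the models of 8 and 4 groups, 21 in a model of 8 groups with 33 libraries, 27 with a log2 threshold of 1 and 1 with glmTreat. With 1 library left out they became 1 to 22, 22 being without 48 h replicate 4 and 1 without 24 h replicate 1, 3, 4 or 5 or 48 h replicate 2, 5 or 6. The interaction gave 1 gene over 24 libraries, 11 with library size alone, 112 in DESeq2 and 0 to 417 with 1 library left out (417 without 48 h replicate 3, 51 without 48 h replicate 4). Over 23 libraries, 417 genes became 810 with library size alone, 686 in DESeq2 and 203 to 1136 with 1 library left out, 1136 being without 48 h replicate 4 and 203 to 239 without 24 h replicate 4 or 48 h replicates 1, 5 or 6.

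The refits were followed gene by gene for 60 of the genes described, which do not include CEL74A, SWO1 or HPR1. For these 60 genes, no called direction reversed over the 11 libraries, where BGA1 and Tr-ACON-3, which had no call, changed sign in some refits. Of the refits of single genes, 1103 left the status of the gene as it was, which includes genes uncalled in both fits. In 62 refits a call was lost, and in 32 a gene without a call gained one. In the joint model of 8 groups, AGL3, CBH2, CEL61A, CLR2, ID50894, nag1, PMH29, XLT1 and XYN5 lost their call, and ID75568 lost it with library size alone. Over the 12 libraries the sign turned in voom, which gave 48 h replicate 3 a weight of 0.0594, for ABF3 (-1.37), RES1 (-0.56), Tr-PRO1 (-0.74), HFB2 (-2.996), HFB3 (-2.07), the QID74-like gene (-2.15) and CCG6 (-0.61). With 1 library left out it turned with a call for ABF3 (-1.56 to 0.29), RES1 (-0.58 to 0.40), the QID74-like gene (-1.69 to 1.59) and CCG6 (-0.48 to 0.36), the lowest value being that without 48 h replicate 3 in each case. Leaving out 48 h replicate 3 also turned it, with no call in either fit, for Tr-PRO1 (-0.47), Tr-ACON-3 (-0.15), HFB2 (-1.57), HFB3 (-1.14), CEL5A (0.26) and XYR1 (0.17), and it turned for CEL7B, CLR2 and ID50894, uncalled over the 12 libraries, under others. The cause of these shifts was not tested. No library held under 9955798 counts, and genes under about 1 CPM rest on few counts, such as ID106494 with at most 17 counts in a 24 h library.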
